A study of Mus musculus with 8 samples.

Results

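Sertoli cells are the supporting cells of the testis cord, and 9 genes that mark them, Sox9, Gata4, Wt1, Nr5a1, Amh, Dhh, Cst9, Clu and Defb19, were followed in germ cells that had been sorted from mouse gonads at E15.5. The genes were found by name in 2 tables, 1 per sex, and each had a single locus in both, out of 24281 loci with a gene name in the female table and 23944 in the male table. In Snf5 CKO males, all 9 were higher than in control males, by 3.79-fold to 6.87-fold in mean FPKM. In females they were low, and Sox9, Amh, Dhh and Cst9 were at most at 0.153 FPKM in every library.

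The 8 libraries fell into 4 groups of 2 by sex and genotype, which the methods call biological duplicates. Replicate 1 and replicate 2 differ in the style of the raw file names in the labels, and the male columns number them as experiments. The Snf5 CKO embryos had a floxed and a deleted Snf5 allele (Snf5fx/Δ) and TNAP-Cre, a Cre inserted in the Alpl gene. This Cre acts in primordial germ cells and recombines incompletely. The gonadal somatic cells are not its target, but in Snf5 CKO embryos they too carry the deleted allele. Control embryos were of mixed genotype, Snf5fx/+ with or without TNAP-Cre, or Snf5fx/Δ without it. Of these controls, only the Snf5fx/Δ embryos carry the deleted allele in somatic cells. All carried the Oct4-EGFP transgene, by which the germ cells were sorted, and the control and female libraries pooled cells of several embryos. By the methods, male Snf5 CKO replicate 2 came from a single embryo and replicate 1 from embryos sorted singly. The sort purity given there was high for all libraries and, among the male ones, highest for Snf5 CKO replicate 2. The labels give the background as C57BL/6, whereas the methods give a mixed one. Snf5 is listed as Smarcb1 and was at 23.4 and 22.3 FPKM in the female controls, at 4.24 and 2.47 FPKM in female Snf5 CKO, at 141 and 167 FPKM in the male controls and at 8.73 and 10.1 FPKM in male Snf5 CKO. Its levels in the 4 Snf5 CKO libraries lay below both controls of the same sex. FPKM is the number of fragments scaled to transcript length and to the mapped fragments of the library. Counts are not part of these tables, and so depth is unknown. The confidence bounds given for the FPKM values were not used. As a check of the sorted cell type, the germ cell genes Ddx4 and Dazl were at 203 FPKM or more in all 8 libraries.

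In the embryonic testis, SOX9, the transcription factor that sets the Sertoli cell fate, acts with NR5A1, GATA4 and WT1, which are also made in other somatic cells of both the testis and the ovary. Sertoli cells then secrete AMH, which makes the Müllerian duct regress, and DHH, the hedgehog ligand of the testis, which acts on Leydig and peritubular cells. They also secrete the chaperone clusterin (Clu), the cystatin family protein CST9 and the defensin DEFB19. Germ cells lie beside Sertoli cells inside the cords.

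The loci are spread over 5 chromosomes, with positions given here on mm10 as in the male table. Of the members, 4 lie on chromosome 2, namely Nr5a1 from 38692658 to 38714542, Wt1 from 105076538 to 105173614, Cst9 from 148835147 to 148838737 and Defb19 from 152576086 to 152580312. Gata4 spans 63198915 to 63271909 and Clu 65968483 to 65981545 on chromosome 14. Amh spans 80805205 to 80807648 on chromosome 10, Sox9 112782210 to 112787757 on chromosome 11, and Dhh 98893027 to 98898540 on chromosome 15. In the GENCODE annotation of the same build, the Wt1 locus of the table also covers Gm11060 and the antisense gene Wt1os and begins upstream of Wt1 itself (105126529), Nr5a1 overlaps the antisense gene Nr5a1os, and Dhh overlaps Rhebl1 on its own strand and an antisense gene. The strand of the reads was not used as far as the sources state, so fragments of these overlapping genes cannot be told apart. No other gene is annotated within the remaining 6 loci. By their longest transcripts, Defb19 (394 bases) and Cst9 (687 bases) are the shortest members and Dhh (4242 bases) the longest.

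RefSeq promoter windows (GRCm38.p6), from 250 bases before to 50 bases after the start of transcription, were at hand for 2 of the 9 members, Dhh and Cst9. No window was at hand for the other members. Both genes were near 0 in females, as were Sox9 and Amh, and all 9 members rose in males. The windows are chr15:98898491-98898790 on the minus strand and chr2:148834897-148835196 on the plus strand, written 5′ to 3′, with matches to the searched letters in capitals.
Dhh: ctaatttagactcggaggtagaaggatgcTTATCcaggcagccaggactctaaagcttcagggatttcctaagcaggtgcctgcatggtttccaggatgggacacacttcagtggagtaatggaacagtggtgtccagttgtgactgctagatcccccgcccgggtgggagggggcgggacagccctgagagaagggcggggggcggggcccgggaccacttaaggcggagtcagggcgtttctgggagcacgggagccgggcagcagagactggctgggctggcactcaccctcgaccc
Cst9: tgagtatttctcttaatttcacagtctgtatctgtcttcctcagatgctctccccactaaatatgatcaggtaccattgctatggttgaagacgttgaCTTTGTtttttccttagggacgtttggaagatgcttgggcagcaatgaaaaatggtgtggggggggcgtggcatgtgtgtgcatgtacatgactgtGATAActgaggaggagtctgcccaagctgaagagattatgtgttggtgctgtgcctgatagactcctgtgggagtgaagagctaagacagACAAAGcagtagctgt
Both strands were searched for AAGGTCA (a site of NR5A1), GATAA (GATA factors), AACAAT and ACAAAG (2 forms of SOX sites) and GCGTGGG (WT1). The Dhh window held 1 match, to GATAA, on the opposite strand at position -221, counted from the start of transcription. The Cst9 window held 3 matches, GATAA at position -56, and ACAAAG at position -152 on the opposite strand and at position 35. GATAA was found in 25.4% and ACAAAG in 18.7% of all 32817 windows of this length, AACAAT in 10.7%, GCGTGGG in 5.04% and AAGGTCA in 4.72%. The matches are letters in a window and were not tested as binding sites.

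In males, the 4 transcription factors rose from low levels in control. Sox9 stood at 2.98 and 2.51 FPKM in control and at 11.1 and 11.4 FPKM in Snf5 CKO (limma log2 difference 1.71, SE 0.19, adjusted p 0.0033). Gata4 was at 7.63 and 3.78 FPKM in control and at 23.9 and 19.4 FPKM in Snf5 CKO (1.81, SE 0.33, limma adjusted p 0.011). The replicates of Sox9 lay close together in both groups, whereas the control libraries of Gata4 were far apart and replicate 1 was the higher. Wt1 was at 1.78 and 1.21 FPKM in control and at 6.50 and 6.79 FPKM in Snf5 CKO (1.62, SE 0.20, limma adjusted p 0.0044). Nr5a1, which encodes the nuclear receptor SF-1, was at 3.76 and 2.08 FPKM in control and at 10.5 and 12.1 FPKM in Snf5 CKO (1.68, SE 0.27, limma adjusted p 0.0082). For all 4 factors, both Snf5 CKO libraries lay above both controls. These and all further log2 differences are of log2(FPKM + 1), a scale that makes changes of weakly expressed genes look smaller.

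**Figure D1:**
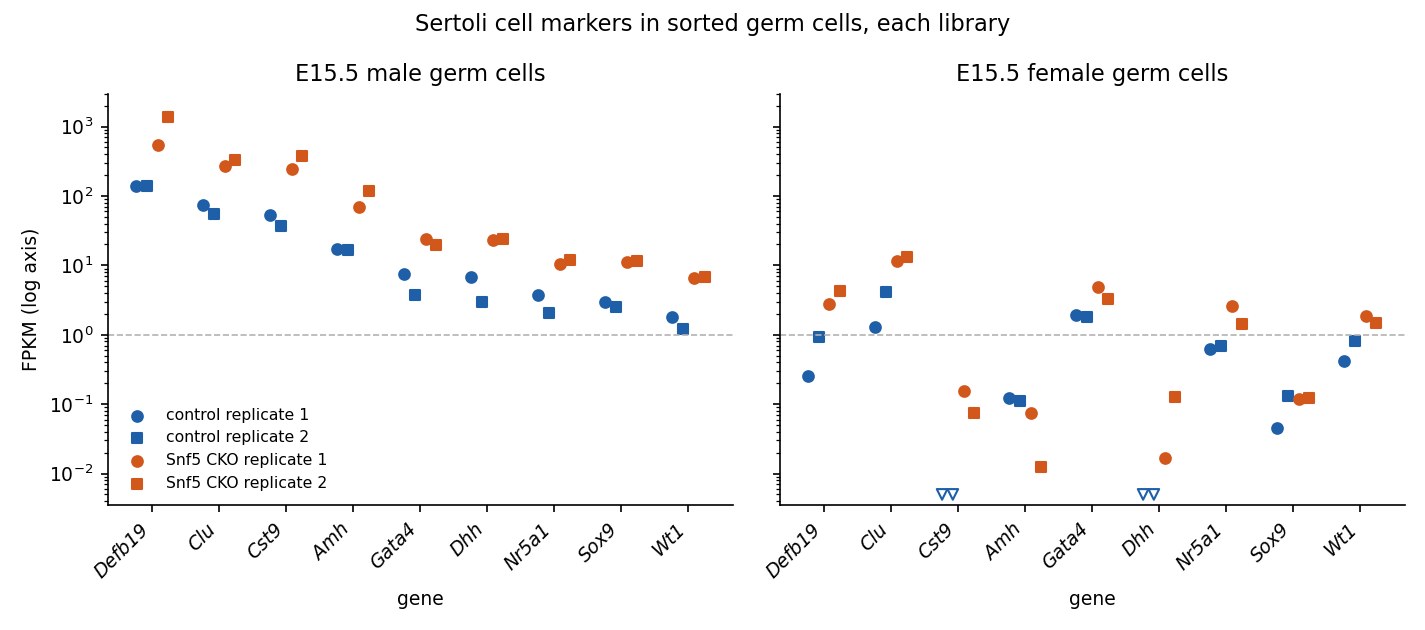
FPKM (log axis) of the 9 Sertoli cell markers in every library of male (left) and female (right) E15.5 germ cells; circles are replicate 1, squares replicate 2, blue control and orange Snf5 CKO, open triangles are values listed at 0, and the dashed line is 1 FPKM, the least mean for a test. In males the Snf5 CKO libraries lie above both controls for every gene, and in females Sox9, Amh, Dhh and Cst9 lie below the line in all libraries.

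The ligand genes rose as well. Amh was at 17.3 and 16.5 FPKM in the male controls and at 69.7 and 119.5 FPKM in male Snf5 CKO (limma log2 difference 2.37, SE 0.29, adjusted p 0.0041). Dhh was at 6.84 and 2.96 FPKM in control and at 23.1 and 24.2 FPKM in Snf5 CKO (2.15, SE 0.36, limma adjusted p 0.0086). For Amh the controls agreed closely and the Snf5 CKO libraries were apart, and for Dhh it was the other way round.

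The genes of the abundant secreted products had the highest levels. Defb19 was at 137 and 141 FPKM in the male controls and at 543 and 1372 FPKM in male Snf5 CKO (limma log2 difference 2.62, SE 0.47, adjusted p 0.011). Cst9 was at 53.8 and 37.4 FPKM in control and at 246 and 375 FPKM in Snf5 CKO (2.73, SE 0.30, limma adjusted p 0.0033). Clu was at 74.5 and 55.4 FPKM in control and at 272 and 325 FPKM in Snf5 CKO (2.19, SE 0.23, limma adjusted p 0.0031). Again the groups did not overlap, and replicate 2 was the higher Snf5 CKO library for all 3 genes, most of all for Defb19. Among named loci ordered by FPKM, Defb19 held place 775 and 839 in the control libraries and place 176 and 104 in Snf5 CKO. Amh moved from places 5058 and 5068 to places 1522 and 964.

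All 9 members were thus tested in males and called higher, that is, with an adjusted p under 0.05 over all loci and a log2 difference of at least 1, against 14.3% of the 12368 tested loci. An adjusted p under 0.05 at any fold was found for 20.9% of these loci on the higher and 25.3% on the lower side. In 34.5% of them both Snf5 CKO libraries lay above both controls, and in 39.9% below both. Their median log2 difference was 2.15, and that of all tested loci was -0.07. Each member had a control mean above 1 FPKM, so none was tested only because of its level in Snf5 CKO. The call was kept for all 9 with each library left out in turn, with the replicate number as a block, and after scaling the libraries to equal sums or by the median of ratios. A single value compared between 2 and 2 libraries cannot go below p = 0.333 in an exact permutation test, so the calls rest on the variance shared across loci. Without moderation of variances across loci only 1 of the 9, Sox9, was called, and 5 were called when loci with low values were not removed.

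In male controls the order of the levels was Defb19, Clu, Cst9, Amh, Gata4, Dhh, Nr5a1, Sox9 and Wt1. The ranges of the 2 libraries overlapped between Gata4 and Dhh, between Dhh and Nr5a1 and between Nr5a1 and Sox9. Within each control library, however, Gata4 was above Dhh and Dhh above Nr5a1. Nr5a1 and Sox9 changed places between the libraries, so their order is not resolved. In male Snf5 CKO the ranges of Cst9 and Clu, of Dhh and Gata4, and of Nr5a1 and Sox9 overlapped, and the other neighbours were separate. Defb19 stayed the highest and Wt1 the lowest member.

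The genotypes were also compared within each replicate number. Within replicate 1, the ratio of Snf5 CKO to control lay between 2.78 (Nr5a1) and 4.58 (Cst9), with a median of 3.65. Within replicate 2 it lay between 4.53 (Sox9) and 10.0 (Cst9), with a median of 5.87. All 9 ratios of deposited FPKM were larger in replicate 2. On the share of the FPKM of named loci, a scale added after seeing the data, 8 of the 9 were larger in replicate 2, where the ratios lay between 3.57 (Sox9) and 7.91 (Cst9), and Sox9 was at 3.64 in replicate 1.

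**Figure D2:**
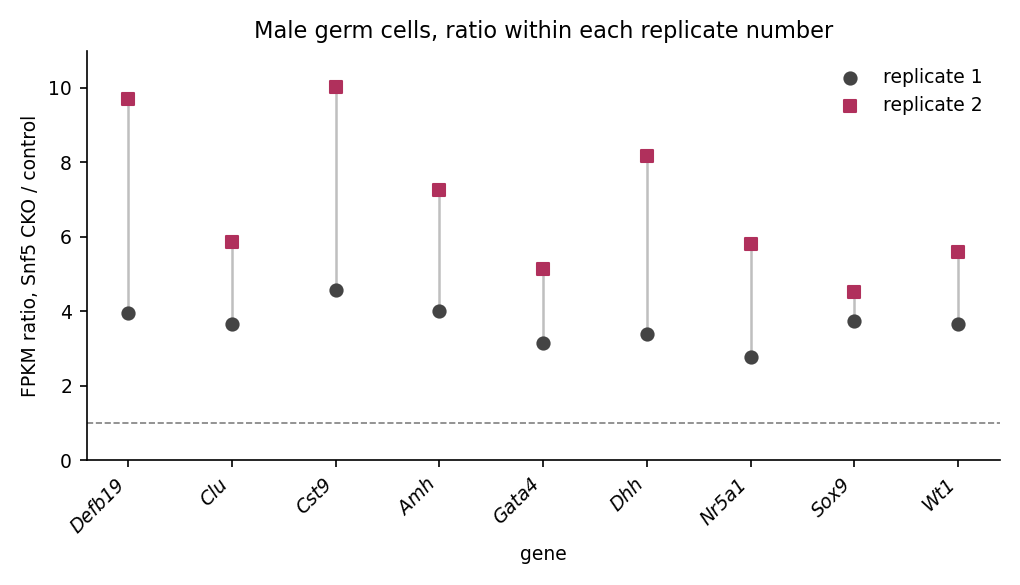
Ratio of FPKM in Snf5 CKO to control in male germ cells (linear axis from 0) for each marker, within replicate 1 (circles) and within replicate 2 (squares); the dashed line is a ratio of 1. All ratios exceed 1, with 2.78 to 4.58 in replicate 1 and 4.53 to 10.0 in replicate 2.

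The share of each member in their sum does not depend on how the libraries are scaled. In males several shares followed the replicate number, and Snf5 CKO replicate 2 had the highest Defb19 share and the lowest Clu and Sox9 shares. Of the summed FPKM of the 9 genes, Amh held 5.67% and 6.25% in the controls and 5.78% and 5.28% in Snf5 CKO. Sox9 held 0.974% and 0.954% in the controls and 0.924% and 0.503% in Snf5 CKO. Defb19 held 44.9% and 53.7% in the controls and 44.99% and 60.6% in Snf5 CKO, and Clu 24.4% and 21.1% against 22.6% and 14.4%. The Defb19 share was higher, and the Clu share lower, in replicate 2 than in replicate 1 of both genotypes. Gata4 (2.49% and 1.43% in the controls, 1.98% and 0.854% in Snf5 CKO) and Dhh (2.24% and 1.13%, then 1.92% and 1.07%) were also lower in replicate 2. The Sox9 share was low in Snf5 CKO replicate 2 alone. Relative to Clu, Wt1 was at 0.0239 and 0.0219 in the controls and at 0.0239 and 0.0209 in Snf5 CKO, whereas Cst9 was at 0.721 and 0.674 in the controls and at 0.905 and 1.15 in Snf5 CKO.

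**Figure D3:**
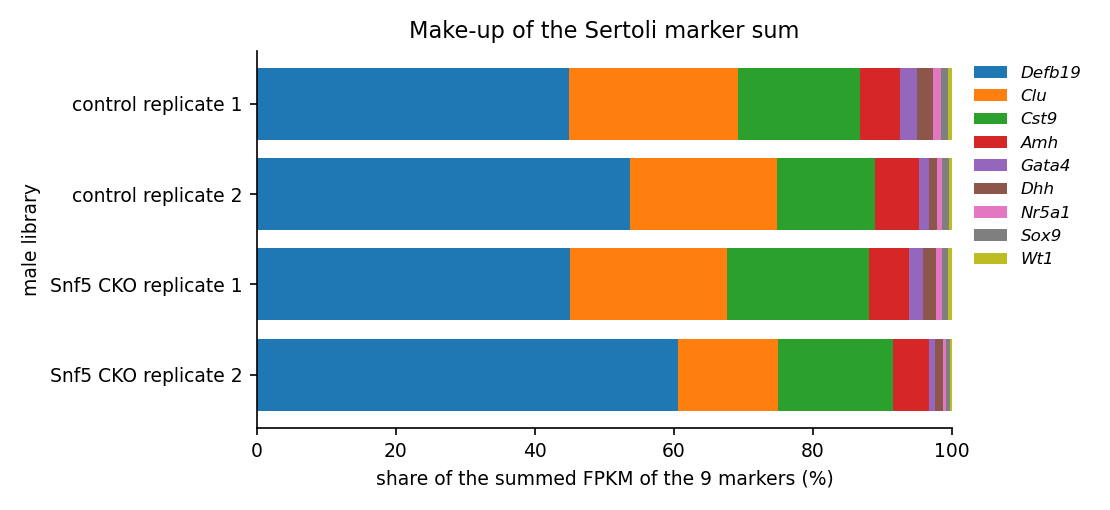
Share (%) of each of the 9 markers in their summed FPKM, 1 bar for each male library. Defb19, Clu and Cst9 make up most of the sum in all 4 libraries, and the Defb19 share is largest, 60.6%, in Snf5 CKO replicate 2.

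The 9 genes together held 0.0480% and 0.0332% of the FPKM of named loci in control males and 0.184% and 0.225% in Snf5 CKO males, which is 5.04 times the control mean. In females Snf5 CKO was 3.75 times the control mean, at a far lower sum of 4.67 and 8.50 FPKM in control and 23.9 and 24.0 FPKM in Snf5 CKO. The tables were normalized separately, so these levels are set side by side without a test.

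In females 5 members were higher in Snf5 CKO, at low levels. Clu was at 1.31 and 4.06 FPKM in control and at 11.5 and 13.2 FPKM in Snf5 CKO (limma log2 difference 1.96, SE 0.36, adjusted p 0.0035). Defb19 was at 0.256 and 0.917 FPKM in control and at 2.81 and 4.29 FPKM in Snf5 CKO (1.53, SE 0.28, limma adjusted p 0.0033). Both were called higher. The control libraries of these 2 genes were far apart, with replicate 2 higher. Gata4 was at 1.90 and 1.79 FPKM in control and at 4.82 and 3.30 FPKM in Snf5 CKO, a log2 difference of 0.81 (SE 0.22, limma adjusted p 0.017). Wt1 was at 0.416 and 0.804 FPKM in control and at 1.84 and 1.46 FPKM in Snf5 CKO (0.73, SE 0.21, limma adjusted p 0.023). Nr5a1 was at 0.618 and 0.679 FPKM in control and at 2.59 and 1.45 FPKM in Snf5 CKO (0.85, SE 0.24, limma adjusted p 0.019). In these 3 genes the groups did not overlap and the adjusted p was under 0.05, but the change was too small on this scale to be called. Of the 11642 tested loci, 26.7% were higher with an adjusted p under 0.05 at any fold and 34.8% lower, and 17.2% were called higher. Both Snf5 CKO libraries lay above both controls for 36.2% of them, as for all 5 tested members, and below both for 45.3%. Of the members too low to be tested, Dhh and Cst9 lay above both controls and Amh below both. Wt1, Nr5a1 and Defb19 had control means under 1 FPKM and were tested because of their levels in Snf5 CKO, so the number of members that passed is not read as a result. Without Snf5 CKO replicate 1, Clu and Defb19 alone kept an adjusted p under 0.05, and without Snf5 CKO replicate 2, Gata4 and Nr5a1 were called too. With no moderation, or with low loci kept, no female member was called, although 5 of the 9 had an unadjusted p under 0.05 with low loci kept and 0 of 5 without moderation.

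The other 4 genes were not tested in females, since their means were below 1 FPKM. Sox9 was at 0.0452 and 0.132 FPKM in control and at 0.118 and 0.121 FPKM in Snf5 CKO, and the groups overlapped. Amh was at 0.123 and 0.112 FPKM in control and at 0.0740 and 0.0125 FPKM in Snf5 CKO. Dhh and Cst9 were listed at 0 in both female controls, and at 0.0166 and 0.127 FPKM and at 0.153 and 0.0754 FPKM in Snf5 CKO. The tables give the status of these loci as OK.

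A further list of 22 genes of fetal Sertoli cells was described in the same fits. In this and the other lists, genes with a control mean under 1 FPKM that rose were tested because of their level in Snf5 CKO, and the counts that hold them are a description. In males 18 were tested, of which 16 were called higher and 0 lower, against 14.3% and 17.5% of all tested loci. The median log2 difference of the 18 was 1.80. Of the 18, 4 had a control mean under 1 FPKM, Cldn11, Vnn1, Kitl and Nr0b1. Ctsl, a lysosomal protease that is not specific to Sertoli cells, was at 97.6 ± 5.65 FPKM (SD, n = 2) in control and at 231 ± 44.3 FPKM in Snf5 CKO (log2 difference 1.22, limma adjusted p 0.010). Ptgds, the prostaglandin D synthase that reinforces Sox9, was at 35.2 ± 0.523 FPKM in control and at 209 ± 95.9 FPKM in Snf5 CKO (2.45, limma adjusted p 0.0057). Gstm6, a glutathione transferase, rose by 2.02, Aard by 2.67, Tesc by 2.28, Col9a3 by 2.19 and Mro by 1.9997 on the same scale. The steroid enzymes Hsd17b1 and Hsd17b3, of which the latter makes testosterone from androstenedione in fetal Sertoli cells, rose by 2.16 and 1.85. The inhibin genes Inha and Inhbb rose by 1.74 and 1.70, Rhox8 by 1.90, and Sox8, which backs up Sox9, by 1.69. The other called genes were Kitl (1.23), Vnn1 (1.24) and Cldn11 (1.21). Nr0b1 (0.87, limma adjusted p 0.058) and Trf (-0.75, limma adjusted p 0.060) were not called, and the signal Fgf9 was at most at 0.283 FPKM in every male library.

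In females, 8 of the 22 were tested, 4 called higher and 2 lower, against 17.2% and 21.8% of all tested loci, and the 4 were Tesc (log2 difference 3.005), Gstm6 (2.30), Rhox8 (1.49) and Aard (1.30). Rhox8 and Kitl had control means under 1 FPKM. Ctsl and Col9a3, which rose in males, fell in females by 2.13 and 1.10. Kitl was at 0.802 and 1.09 FPKM in control and at 2.71 and 2.26 FPKM in Snf5 CKO (0.84, limma adjusted p 0.0098). Inha, the second most abundant of the 22 in the female controls, was at 5.06 and 5.43 FPKM in control and at 3.65 and 3.77 FPKM in Snf5 CKO (-0.41, limma adjusted p 0.095). Its locus in females, 75485825 to 75510362 on chromosome 1, is wider than in males, 75507077 to 75510354.

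Among the genes that set the gonad and testis fate, Sry was listed at 0 in all 8 libraries. In males Fgfr2, the receptor for FGF9 in Sertoli cells, rose from 3.61 ± 0.929 to 20.3 ± 5.18 FPKM (SD, n = 2 each; log2 difference 2.20, limma adjusted p 0.0041). Gadd45g rose by 2.09 and Sox10, from a control mean of 0.365 FPKM, by 1.09 on the log2 scale. In females 5 of the 6 tested genes were called higher, Six4 (3.12), Dmrt1 (2.80), Gadd45g (2.23), Fgfr2 (1.46) and Cbx2 (1.09), against 17.2% of all tested loci. Six4 and Fgfr2 had female control means of 0.736 and 0.985 FPKM and were tested because of their levels in Snf5 CKO. Dmrt1 and Cbx2 are also expressed in germ cells. Dmrt1 was at 7.39 and 9.91 FPKM in the female controls and at 72.6 and 59.2 FPKM in female Snf5 CKO. In males it was at 30.4 and 29.0 FPKM in control and at 61.7 and 53.6 FPKM in Snf5 CKO (0.93, limma adjusted p 0.011), and Cbx2 was at 36.6 and 26.1 FPKM in control and at 18.4 and 13.8 FPKM in Snf5 CKO (-0.91, limma adjusted p 0.036). Without control replicate 2 or without Snf5 CKO replicate 1, 1 gene of this list, Cbx2, was called lower in males. Six4 was at 0.70 in males (limma adjusted p 0.026). Map3k4, which acts upstream of Sry, was at 42.0 and 31.8 FPKM in the male controls and at 27.3 and 19.6 FPKM in male Snf5 CKO (-0.64, limma adjusted p 0.089), and in females at -0.68 (limma adjusted p 0.015).

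The receptor of AMH, Amhr2, which is made in the supporting cells of both sexes, rose with Amh in males, from 4.23 and 3.18 FPKM in control to 25.0 and 27.2 FPKM in Snf5 CKO (log2 difference 2.54, limma adjusted p 0.0023). The type I receptor Bmpr1a and the effector Smad1 rose in males by 1.27 and 1.29. Smad4 and Smad5 were at 0.04 and -0.11, with overlapping groups. In females Acvr1 (2.12) and Amhr2 (1.40) were called higher and Smad5 (-1.33) lower of 6 tested, against 17.2% and 21.8% of all tested loci. Bmpr1a (0.41), Smad1 (0.04) and Smad4 (0.77) were not called.

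In males 2 of 8 tested hedgehog pathway genes were called higher and 0 lower, against 14.3% and 17.5% of all tested loci. The 2 were the coreceptor Gas1, from 1.30 ± 0.045 to 17.0 ± 1.72 FPKM (SD, n = 2 each; log2 difference 2.97, limma adjusted p 0.0022), and the target Gli1 (1.06). The receptor and target Ptch1 (-0.48) overlapped between the groups. The target Hhip was at 0.243 and 0.192 FPKM in control and at 0.660 and 0.531 FPKM in Snf5 CKO, too low to be tested. The transducer Smo was at 0.40 (limma adjusted p 0.19), and Gli3 was at 0.99 (limma adjusted p 0.024). In females Gas1 (1.71) was called higher and Sufu (-1.07), an inhibitor of the pathway, lower of 7 tested. Of all tested female loci, 17.2% were called higher and 21.8% lower. Gli3 (0.53), Ptch1 (-0.35) and Smo (-0.36) were not called in females. Of the hedgehog genes, 1 was called higher in males without control replicate 2, and 0 were called lower in females without Snf5 CKO replicate 2. Among relatives of Gata4 and Nr5a1, none of 3 tested genes was called in males, where 14.3% of all tested loci were called higher and 17.5% lower. Gata6, the other GATA factor of gonadal somatic cells, was at 0.95 there (limma adjusted p 0.0099), Zfpm1 at 0.05 and Gata2 at 0.00. In females Gata2 was called higher (1.40) and Gata1 lower (-1.36) of 4 tested, against 17.2% and 21.8% of all tested loci. Zfpm1 was at -0.32 and Gata6 at 0.52.

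Leydig and stromal cell markers moved the other way from the Sertoli genes in males. Of 7 Leydig cell genes, 5 were tested, 3 were called lower and 0 higher, against 17.5% and 14.3% of all tested loci. Cyp17a1, an enzyme of androgen synthesis, was at 20.2 and 11.6 FPKM in the male controls and at 2.71 and 0.819 FPKM in Snf5 CKO (log2 difference -2.65, limma adjusted p 0.0086). Cyp11a1 fell by 2.27 and Insl3, which shares its locus with Jak3, by 1.66, and Hsd3b1 was at -1.20 (limma adjusted p 0.052). The summed level of the list, in ppm of the FPKM of named loci, was 135 and 73.6 ppm in control and 29.3 and 15.1 ppm in Snf5 CKO. All 11 stromal and peritubular genes lay below both controls in male Snf5 CKO, as did 39.9% of all tested loci. Only 4 of the 11 were tested, since the others had means under 1 FPKM. Of these 4, 3 were called lower, against 17.5% of all tested loci. They were Col3a1 (-1.47), Col1a1 (-1.44) and Pdgfra (-1.09), and Col1a2 was at -1.09 (limma adjusted p 0.063). The summed level of all 11 was 39.3 and 17.3 ppm in control and 8.86 and 3.89 ppm in Snf5 CKO. Of the blood and endothelial genes, 9 were tested in males, where 17.5% of all tested loci were called lower and 14.3% higher. Tek (-1.16) and Hbb-y (-1.85) were called lower, and Lyz2 was called higher (1.38). Lyz2 was at 0.248 and 0 FPKM in control, so that it was tested because of its level in Snf5 CKO. The adult globin loci overlapped between the groups, with Hbb-bs at 21.1 and 40.4 FPKM in control and at 20.5 and 23.7 FPKM in Snf5 CKO. The Sertoli members were thus higher in both male Snf5 CKO libraries in which Leydig and stromal genes were lower. How far RNA of somatic cells that passed the sort, or of the germ cells themselves, contributed to these levels was not tested. In sorted bulk samples, changes in the number of such somatic cells, in their RNA content and in germ cell RNA cannot be told apart.

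**Figure D4:**
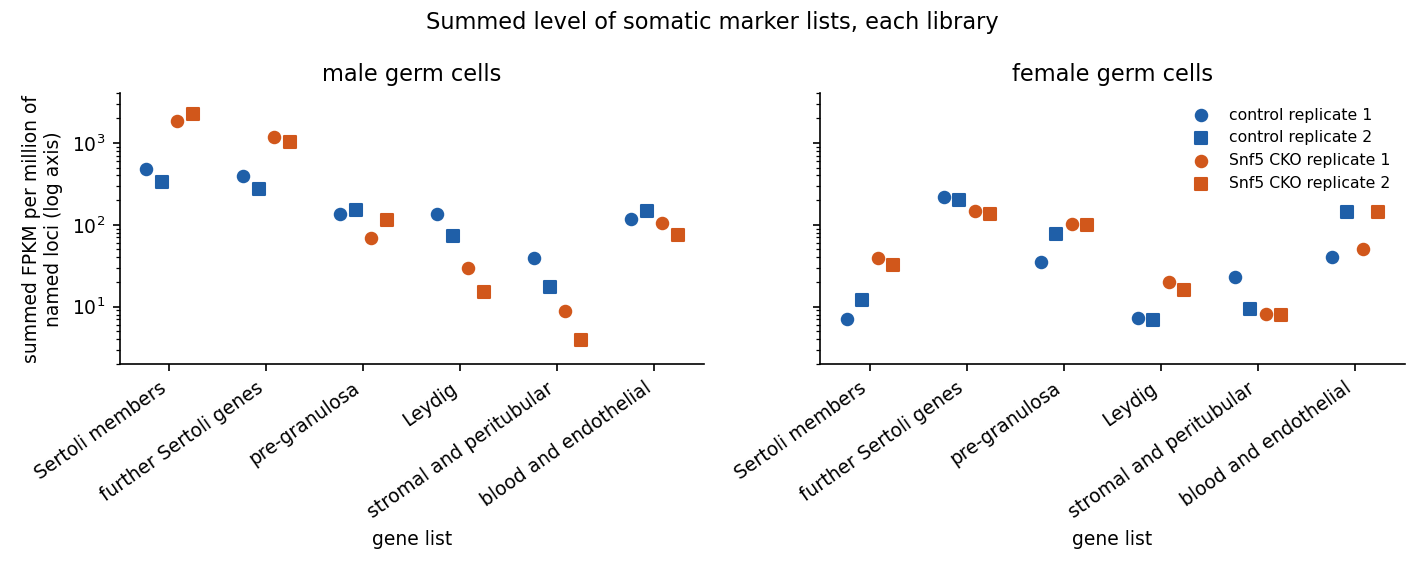
Summed FPKM of each somatic marker list in ppm of the FPKM of named loci (log axis), for every library of male (left) and female (right) germ cells; circles are replicate 1, squares replicate 2, blue control, orange Snf5 CKO. In males the Sertoli lists are higher and the Leydig and stromal lists lower in both Snf5 CKO libraries.

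In females, 8 genes of pre-granulosa cells, the supporting cells of the ovary, were tested, and 6 lay above both controls and 1 below both. Of all tested loci, 36.2% lay above both controls and 45.3% below both. Of the 8 tested, 3 were called higher and 1 lower, against 17.2% and 21.8% of all tested loci. The higher ones were Rspo1 (log2 difference 1.63), Fst (1.59) and Irx3 (1.02), and the lower one was Bmp2 (-1.18). Without control replicate 2 the number called higher was 5, and without Snf5 CKO replicate 2 none was called lower, against 1 with all libraries. Foxl2, Wnt4 and Irx5 had control means under 1 FPKM and were tested because of their levels in Snf5 CKO. Foxl2, a transcription factor of the ovary, was at 0.328 and 1.13 FPKM in control and at 1.67 and 2.07 FPKM in Snf5 CKO (0.77, limma adjusted p 0.041), and Wnt4 was at 0.873 and 1.06 FPKM in control and at 2.28 and 2.31 FPKM in Snf5 CKO (0.75, limma adjusted p 0.012). The summed level of the list was 35.2 and 77.5 ppm in control and 101 and 99.8 ppm in Snf5 CKO. Much of it was Gng13, which was at 12.7 and 42.5 FPKM in control and at 34.02 and 49.4 FPKM in Snf5 CKO. Of all tested male loci, 14.3% were called higher and 17.5% lower, and 4 pre-granulosa genes were tested there. In males, Irx5 (2.91), from a control mean of 0.154 FPKM, was called higher and Rspo1 (-1.20) lower, the latter not without Snf5 CKO replicate 1 (0 lower), Foxl2 was at 0 and 0.0095 FPKM in control and at 0.105 and 0.0245 FPKM in Snf5 CKO, and Fst (-0.17) and Gng13 (-0.67) overlapped. Of the female Leydig genes, Insl3 with Jak3 was called higher (1.18) of 2 tested, against 17.2% of all tested female loci, and Hsd3b1 was at 0.79. Cyp17a1 and Cyp11a1 were at most at 0.264 FPKM. Of the stromal genes in females, Col1a1 was called lower (-1.11) of 2 tested, against 21.8% of all tested loci, and Col3a1 was at -0.54. The summed level of the stromal list was 23.0 and 9.45 ppm in control and 8.15 and 7.87 ppm in Snf5 CKO. Pecam1, which germ cells also express, was the only blood and endothelial gene called higher (2.23) of 4 tested, against 17.2% of all tested female loci. Hbb-bs was at 10.9 and 53.7 FPKM in control and at 1.47 and 35.7 FPKM in Snf5 CKO, so the globins followed the replicate number. With the replicate block the globin loci Hbb-bs and Hba-a1 were called lower. The part of supporting cell RNA in the female values was not tested either.

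**Figure D5:**
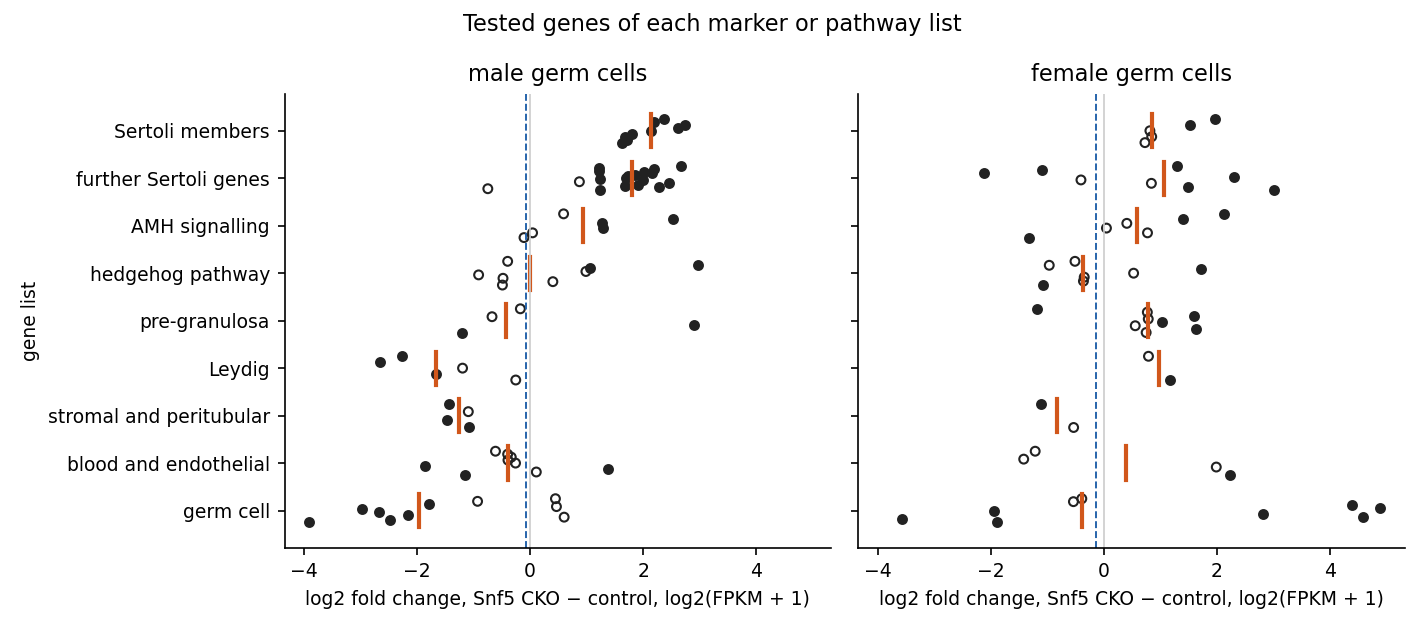
Difference of log2(FPKM + 1) between Snf5 CKO and control for the tested genes of each list in males (left) and females (right); each circle is a gene, filled if called, the orange bar is the median of the list and the dashed line that of all tested loci (-0.07 in males, -0.14 in females). The Sertoli members lie between 1.62 and 2.73 in males, where the tested Leydig and stromal genes lie below 0.

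The germ cell genes themselves moved in several directions. In males, Mael fell by 2.97, Tdrd1 by 3.91, Sycp3 by 2.49, Nanos2 by 2.68, Nanos3 by 2.16 and Dnd1 by 1.78 on the log2 scale, while Dppa3 (0.47), Dazl (0.45), Pou5f1 (0.60) and Ddx4 (-0.93) were not called. The summed level of the 10 germ cell genes was 8433 and 7419 ppm in control and 6895 and 5096 ppm in male Snf5 CKO. In females, Dppa3 (4.89), Pou5f1 (4.59), Dnd1 (4.39) and Nanos3 (2.82) were called higher and Sycp3 (-3.58), Mael (-1.94) and Tdrd1 (-1.89) lower, and Ddx4 (-0.54) and Dazl (-0.39) were not called.

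For each member, the 3 genes with the most similar profile were found by the root mean square distance of log2(FPKM + 1), after removal of the mean of each table, over all 8 libraries where a member was tested in both sexes and over the 4 male libraries otherwise. Nr5a1 was nearest to Gata4 (distance 0.148 among 10471 other genes) and then to Wt1 (0.148), both members. Clu was nearest to the glutathione transferase gene Gstm2 (0.165), Wt1 to Entpd2 (0.0589) and Defb19 to Tmsb4x (0.192). Over the male libraries, Dhh was nearest to Gpr37 (0.0591 among 12278 genes), Amh to Pinlyp (0.0475), Cst9 to Fos (0.0961) and Sox9 to Suclg2 (0.0230). With so few libraries such a profile is shared by many genes, and the distances are a description.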

How the data were processed

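Germ cells of E15.5 gonads were sorted by Oct4-EGFP, and their cDNA was amplified with SMART-Seq v4 and sequenced in pairs. FPKM values per locus are as deposited: the authors aligned reads to mm10 with TopHat2 and computed FPKM with Cuffdiff, in 1 run per sex, with versions 2.2.1 and 2.1.1 in the submitters' processing notes, while the methods give these versions the other way round. The normalization and annotation version are not given in the sources used here. Confidence bounds (16 columns) were left out. Depth is unknown, since steps among values under 0.1 FPKM (tolerance 1%) left a factor of 2 open for several libraries.

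Named loci with a mean of at least 1 FPKM were tested within each sex on log2(FPKM + 1) with limma 3.58.1 (lmFit, eBayes with trend) in R 4.3.3, with Benjamini-Hochberg adjustment over all of them. A call needs an adjusted p under 0.05 and a difference of at least 1. The fit was tested on simulated data. The sexes were not compared by a test, since their tables were normalized separately. The replicate number was read as a possible shared batch, from the raw file names in the labels. It was not a term of the main fit, whose p-values ignore it, and entered only as the block of an alternative fit. Deviations from the group means correlated between same-numbered libraries (r = 0.504 over 11642 female loci, 0.595 over 12368 male loci). The text names all members, the 4 most abundant genes of each other list, any list gene that was called, and the 3 nearest genes to a member or the nearest of them. Fgf9, Nr0b1, Trf, Sry, Foxl2, Wnt4, Hhip and the untested genes of opposite direction were named beyond this rule, after their values were seen. A few genes are not reported here. The members and lists were chosen with earlier results of these data known. Other filters, pseudocounts, scalings, variance models, the block and each library left out were tried. Overlaps come from GENCODE M21. Promoters come from RefSeq, and figures were drawn with matplotlib 3.10.9.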

Additional observations from a re-analysis of the deposited data

Results flagged for a closer look

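Members, and list genes tested in both sexes, are given here where they moved in opposite directions in the sexes, with both Snf5 CKO libraries on one side of the controls in males and on the other in females. The difference between the sexes was not tested, since the tables were normalized separately. Among the members this was Amh, with a mean of 0.118 FPKM in the female controls and 0.0433 FPKM in female Snf5 CKO, against a log2 difference of 2.37 in males. Its female values are close to 0. Among the further Sertoli genes, Inha was at -0.41 in females and 1.74 in males, Col9a3 at -1.10 and 2.19, and Ctsl at -2.13 and 1.22. The Inha locus is wider in females than in males, so its values do not cover the same stretch. Cbx2 was at 1.09 in females and -0.91 in males, Smo at -0.36 and 0.40, Hsd3b1 at 0.79 and -1.20, Rspo1 at 1.63 and -1.20, and Insl3, which shares its locus with Jak3, at 1.18 and -1.66. Of the germ cell genes, Dazl was at -0.39 in females and 0.45 in males, Dnd1 was at 4.39 in females and -1.78 in males, and Nanos3 at 2.82 and -2.16. Dazl (limma adjusted p 0.23 in females and 0.26 in males), Smo (0.17 and 0.19) and Hsd3b1 (0.058 and 0.052) were called in neither sex. Groups apart were common, above both controls for 36.2% of tested female and 34.5% of male loci and below for 45.3% and 39.9%. How many loci were apart in opposite directions was not counted. Another 15 list genes had groups apart in opposite directions but were not tested in both sexes, namely Inhbb, Gdnf, Trf, Hsd17b3, Erbb4, Lhx9, Ihh, Hhip, Gli2, Hhat, Gata3, Nr5a2, Wnt4, Runx1 and Myh11.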

How the results depend on the processing

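In males 9 of 9 members were called, 5 with low loci kept and 1 without moderation of the variances. In females 2 of 5 were called, against 5 with a pseudocount of 0.1, 0 of 9 with low loci kept, 1 of 1 with a mean of at least 5 FPKM and 0 without moderation. The cause was not tested, except that fewer loci are tested under the higher minimum. With each library left out in turn, 2 to 4 female members were called and all 9 male members each time. Of the genes of all further lists, 41 were called in males, 22 with low loci kept, 27 with a mean of at least 5 FPKM and 5 without moderation. In females 32 were called, and 12 without moderation. With the replicate block the counts were 2 of 5 female and 9 of 9 male members, and 34 female and 43 male list genes. No member tested in the main fit changed direction in any setting. For the list genes only the numbers called were compared between settings, not the directions. Over all tested loci, rescaling to a common sum changed the male calls from 1772 higher and 2160 lower to 1349 and 2501, and the male members stayed called. On the share of the FPKM of named loci, a scale added after seeing the data, 8 in place of 9 male members had the larger ratio in replicate 2.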
